A study of Mus musculus with 50 samples.

Results

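The genes that write, maintain and remove DNA methylation were followed through RNA-seq of mouse embryonic stem (ES) cells and epiblast-like cells (epiLC), a culture model of the epiblast just after implantation. They were 9 genes chosen by symbol: Dnmt3a, Dnmt3b, Dnmt3l, Dnmt1, Uhrf1, Tet1, Tet2, Tet3 and Tdg. All 9 were found in each of 4 expression tables, 1 of 17043 genes in FPKM (fragment counts divided by transcript length and by library size) and 3 of 55421 genes in TPM (transcript shares scaled to the same total per library). All 9 passed the filter on low values in every table. Of 50 samples, 32 RNA-seq libraries were used, and 18 chromatin immunoprecipitation and input samples were not analysed here.

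The V6.5 line in 2i, a defined medium with inhibitors of MEK and GSK3, carried 1 of 4 hairpins: shBcat to knock down β-catenin (2 libraries), shE2F6 for the repressor E2F6 (2 libraries), shHP1r for the heterochromatin protein HP1γ (2 libraries), and the mock control shGFP (6 libraries). ES cells of a line labelled QKO, which the labels do not spell out, carried shBcat or shGFP in 2i (n = 3 each), with 48 h in the titles and no starting point given. V6.5 cells with no hairpin named were profiled in 2i and as epiLC labelled 24 and 48 h (n = 2 each). The last table gave β-catenin knockdown epiLC labelled 24, 48 and 96 h, with a 96 h control for which no hairpin is named (n = 2 each). The labels give neither the clones and hairpin sequences nor whether replicates were separate cultures, and all p-values rest on library-to-library spread that could be technical alone.

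DNA methylation in mammals is mostly carried by cytosines in CpG pairs. Naive ES cells in 2i are known for low methylation, and the transition to the post-implantation epiblast is known for genome-wide gain through de novo methylation. Dnmt3a (chr12:3801559-3914443) and Dnmt3b (chr2:153649411-153687730) encode the de novo methyltransferases, and Dnmt3l (chr10:78042287-78063622) a related protein without catalytic activity that stimulates them. Dnmt1 (chr9:20907206-20959888) encodes the maintenance methyltransferase, which copies the mark after replication, and Uhrf1 (chr17:56303337-56323486) the protein that recruits it to hemimethylated DNA. Tet1 (chr10:62804570-62887469), Tet2 (chr3:133463677-133545136) and Tet3 (chr6:83362373-83457208) encode dioxygenases that oxidize 5-methylcytosine. Tdg (chr10:82629814-82650799) encodes the glycosylase that cuts out the most oxidized forms, which base excision repair then replaces with unmodified cytosine. Coordinates are RefSeq gene spans on GRCm38.p6.

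Promoter windows of the 3 de novo genes, which moved together on entry into epiLC, and of Uhrf1 are shown with the motifs that a search found in them. For Dnmt3a, Dnmt3l and Uhrf1, the window shown was picked because it holds a motif, and the other windows of these genes (2 each for Dnmt3a and Dnmt3l and 1 for Uhrf1) hold none of the motifs searched. Windows are the bases before an annotated RefSeq start on GRCm38.p6, written 5′ to 3′ on the gene's strand, and capitals mark a motif. The Dnmt3b window was ended before the annotated gene span.
Dnmt3a, inner start within the gene, chr12:3891494-3891743, plus strand: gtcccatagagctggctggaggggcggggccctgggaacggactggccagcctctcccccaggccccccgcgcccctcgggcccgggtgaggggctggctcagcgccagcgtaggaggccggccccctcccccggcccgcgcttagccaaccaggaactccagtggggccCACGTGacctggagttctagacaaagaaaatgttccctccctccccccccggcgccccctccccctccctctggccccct
Dnmt3b, chr2:153649199-153649410, plus strand: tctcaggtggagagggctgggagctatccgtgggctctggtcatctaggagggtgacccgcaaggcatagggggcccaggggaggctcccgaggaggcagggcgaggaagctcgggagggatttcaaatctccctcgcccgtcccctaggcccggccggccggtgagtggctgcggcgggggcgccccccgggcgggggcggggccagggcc
Dnmt3l, inner start within the gene, chr10:78049592-78049841, plus strand: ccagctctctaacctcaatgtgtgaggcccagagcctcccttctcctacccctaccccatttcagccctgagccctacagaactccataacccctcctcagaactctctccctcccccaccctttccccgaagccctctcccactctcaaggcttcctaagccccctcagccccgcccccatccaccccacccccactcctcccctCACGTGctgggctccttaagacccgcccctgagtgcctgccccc
Uhrf1, chr17:56303087-56303336, plus strand: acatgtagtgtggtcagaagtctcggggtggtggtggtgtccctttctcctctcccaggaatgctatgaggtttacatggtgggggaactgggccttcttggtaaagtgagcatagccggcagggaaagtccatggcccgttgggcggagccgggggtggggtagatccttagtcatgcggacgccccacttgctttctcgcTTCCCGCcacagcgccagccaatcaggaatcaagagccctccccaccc

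3 motifs were searched on both strands in the 250 bases before each of 32851 RefSeq starts, 16 of them starts of the 9 genes. The E-box CACGTG, a palindrome bound by Myc, Max and Mga and by other basic helix-loop-helix proteins, was found in 6.02% of all windows and in 3 of the 16. It lay 80 bases before the inner Dnmt3a start, 44 bases before the inner Dnmt3l start and 28 bases before a Tdg start. The E2F motif TTCCCGC was found in 3.82% of all windows and in 1 of the 16, 48 bases before the Uhrf1 start. The TCF/LEF motif CTTTGA, the core of sites where β-catenin acts through its partners, was found in 13.8% of all windows and in 1 of the 16, 198 bases before the outermost Dnmt1 start (chr9:20959889-20960138, minus strand). No motif searched overlapped another in these windows, and a match is a run of letters, not a binding site. CpG content differed among the members. The Tet2 window held 51 CpG pairs and the 3 Dnmt3l windows held 3 to 5, against a median of 6 over all windows.

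The tissue labels were checked against marker genes. The summed level of 7 naive ES cell markers (Nanog, Esrrb, Klf4, Tfcp2l1, Zfp42, Tbx3 and Klf2) was 1240 to 1249 TPM in 2i, 160 to 164 TPM at 24 h and 219 to 236 TPM at 48 h, and 4 formative epiblast markers (Fgf5, Otx2, Pou3f1 and Lef1) summed to 20.1, 137 to 139 and 101 to 105 TPM. Pou5f1 and Sox2 together had 1178 to 1211, 1326 to 1373 and 384 to 398 TPM at those times. The sum hides opposite changes at 24 h against 2i, where 1 of the 2 was called higher and 1 lower. The 4 trophoblast markers (Cdx2, Gata3, Krt8 and Krt18) summed to 31.1 to 33.1, 27.7 to 28.7 and 178 to 187 TPM, and the 4 primitive endoderm markers (Gata4, Gata6, Sox17 and Dab2) to 5.37 to 5.91, 5.97 to 6.11 and 20.1 to 23.8 TPM. The 6 fibroblast or feeder markers (Col1a1, Col1a2, Col3a1, Thy1, Postn and Dcn) summed to 2.96 to 3.98, 11.3 to 13 and 14.1 to 15.1 TPM. In bulk RNA, fewer cells of a type and less RNA per cell cannot be told apart. Each hairpin's target was low in its own libraries. Ctnnb1, which encodes β-catenin, averaged 6.60 ± 0.0212 FPKM in shBcat and 116 ± 20.3 FPKM in shGFP V6.5 cells (SD, n = 2 and 6). In QKO cells it averaged 64.4 ± 17.1 TPM with shBcat and 505 ± 20.2 TPM with shGFP (SD, n = 3 each), and at 96 h of epiLC 144 ± 2.15 TPM with shBcat and 445 ± 4.56 TPM in control (SD, n = 2 each). E2f6 had 2.57 and 3.54 FPKM in shE2F6, against a median of 10.45 FPKM in shGFP, and Cbx3, which encodes HP1γ, had 6.60 and 7.25 FPKM in shHP1r, against a median of 62.4 FPKM in shGFP. Depth is unknown because the values are FPKM and TPM, and between 12446 and 15351 genes per library reached a value of 1.

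The order of the 9 levels changed between states. In 2i, Uhrf1 was the highest in both V6.5 (no hairpin) libraries, with 242 and 261 TPM, and Dnmt1 came next with 87.1 and 94.0 TPM. Tet2 with 75.8 and 74.3 TPM, Dnmt3a with 61.6 and 63.2 TPM, Tet1 with 62.8 and 60.7 TPM and Tdg with 61.1 and 56.8 TPM followed. Tet1 overlapped both Dnmt3a and Tdg, so its place between them could not be set. Dnmt3l, Dnmt3b and Tet3 were last, in that order in both libraries. At 24 h Dnmt3a and Dnmt3b ranked highest, above Uhrf1, and Dnmt3l came next after Uhrf1. At 48 h Uhrf1 was again the highest, Dnmt3b stood above Dnmt3a, and Tet2 had become the lowest of the 9. These orders are of the cells with no hairpin named, in TPM. In the shGFP libraries of V6.5 cells in 2i, Dnmt3a had 4.31 to 7.62 FPKM. It stood below Tdg and Dnmt3l in each of those libraries, so its place in 2i differed between tables.

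The de novo genes rose steeply on entry into epiLC. Dnmt3b had 12.4 and 14.3 TPM in 2i, 356 and 354 TPM at 24 h and 143 and 138 TPM at 48 h. Dnmt3a had 61.6 and 63.2 TPM in 2i, 454 and 446 TPM at 24 h and 127 and 133 TPM at 48 h. Dnmt3l had 37.6 and 42.1 TPM in 2i, 254 and 250 TPM at 24 h and 57.6 and 52.6 TPM at 48 h. All 3 genes peaked at 24 h with no overlap between times. Of all genes, 87.7% lacked overlap between 24 h and 2i, 86.9% between 48 and 24 h and 87.2% between 48 h and 2i. Dnmt3l came closest to its 2i level at 48 h.

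These differences were tested with limma on log2(TPM + 1), with Benjamini-Hochberg adjustment over all 16559 genes tested. At 24 h against 2i all 9 genes were called, 8 higher and 1 lower at 24 h, where 76.0% of all genes tested were called, 36.2% higher and 39.8% lower. A call alone therefore says little here, and the sizes carry the description. Dnmt3b was higher at 24 h by 4.63 on the log2 scale (95% interval 4.49 to 4.78, adjusted p = 3.5e-08), the 19th largest change of all genes tested. Dnmt3a was higher by 2.83 (2.75 to 2.91, adjusted p = 2.2e-08) and Dnmt3l by 2.63 (2.48 to 2.78, adjusted p = 2.1e-07), ranked 172 and 226 by size. Between 24 and 48 h, 74.2% of all genes were called, 45.2% higher and 28.9% lower, and 8 of the 9 genes were lower and 1 higher at 48 h. The 48 h change was -2.17 for Dnmt3l (-2.33 to -2.02, adjusted p = 6.6e-07), -1.79 for Dnmt3a (-1.87 to -1.71, adjusted p = 1.5e-07) and -1.33 for Dnmt3b (-1.47 to -1.18, adjusted p = 3.2e-06). The median change of all genes in that step was 0.12 and 7490 genes were higher and 4789 lower, against -0.03, 5873 and 6383 with median-of-ratios scaling. Against 2i, Dnmt3b remained 3.31 higher at 48 h (3.16 to 3.45, adjusted p = 5.2e-08), Dnmt3a 1.04 higher (adjusted p = 3.8e-07) and Dnmt3l 0.46 higher (adjusted p = 0.00051), where 75.9% of all genes were called, 45.1% higher and 30.8% lower, and the median change was 0.11.

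**Figure D1:**
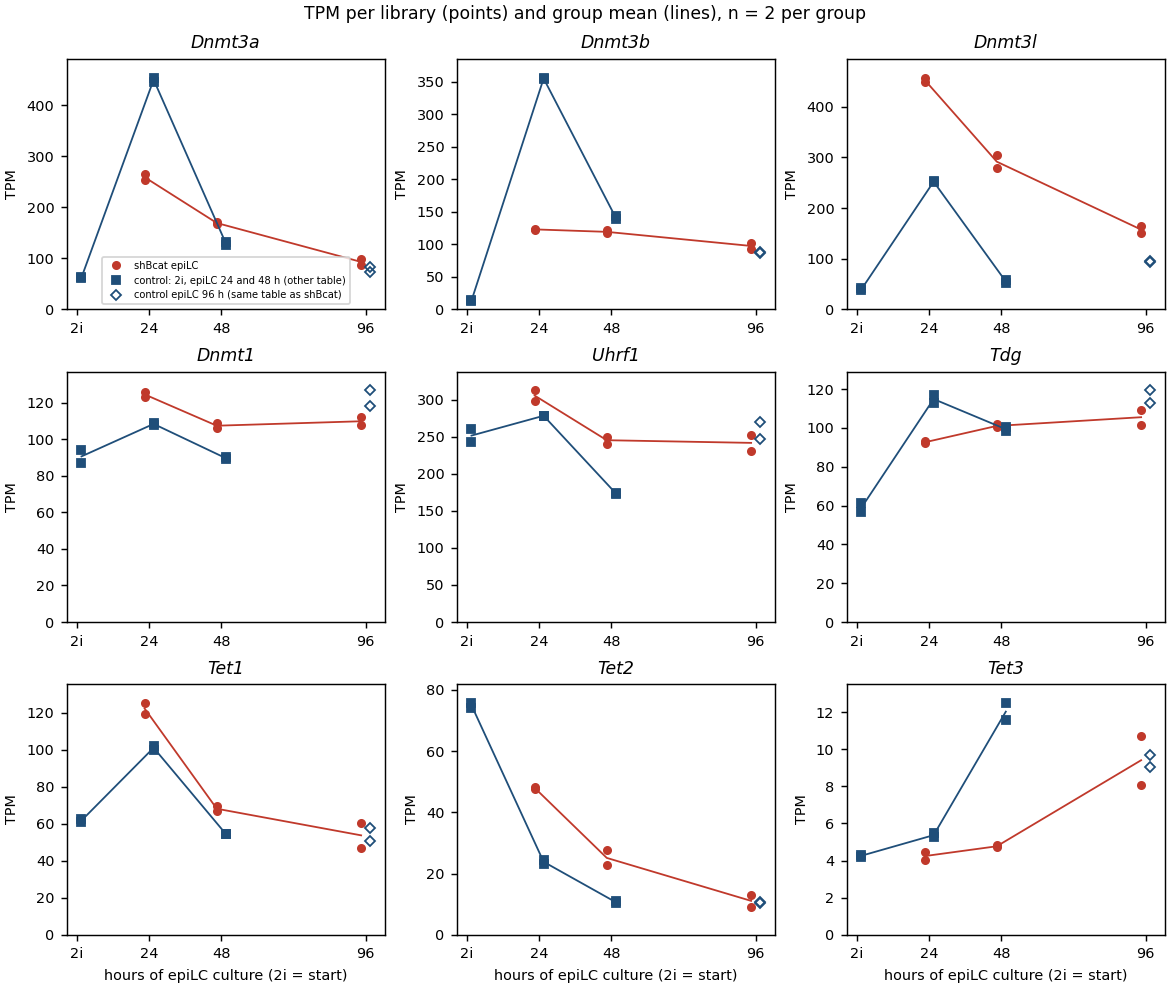
TPM of each gene in every epiLC library against hours of epiLC culture, with 2i as the start. Red circles are shBcat epiLC, filled blue squares are cells with no hairpin named in 2i and at 24 and 48 h, and open diamonds are the 96 h control, which shares its table with shBcat. Lines join group means (n = 2 each). Dnmt3a, Dnmt3b and Dnmt3l peak at 24 h in the cells with no hairpin named, Tet2 falls at each step and Tet3 is highest at 48 h.

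Dnmt1 moved little, and Uhrf1 fell at 48 h. Dnmt1 had 87.1 and 94.0 TPM in 2i, 108 and 109 TPM at 24 h and 90.0 and 89.2 TPM at 48 h. Its change was 0.26 at 24 h against 2i (0.16 to 0.35, adjusted p = 0.00090) and -0.01 at 48 h against 2i (-0.11 to 0.08, adjusted p = 0.76), the 1 comparison of the 9 genes at these times that was not called. With median-of-ratios scaling that last change was -0.12 and was called (adjusted p = 0.029). Uhrf1 had 242 and 261 TPM in 2i, 278 and 278 TPM at 24 h and 173 and 174 TPM at 48 h. Its change at 48 h was -0.68 against 24 h (-0.77 to -0.59, adjusted p = 5.7e-06) and -0.53 against 2i (adjusted p = 1.4e-05). The ratio of Uhrf1 to Dnmt1 TPM was 2.78 and 2.77 in 2i, 2.58 and 2.55 at 24 h, and 1.92 and 1.95 at 48 h.

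The 3 Tet genes went 3 ways. Tet1 had 62.8 and 60.7 TPM in 2i, 102 and 100.0 TPM at 24 h and 54.4 and 54.7 TPM at 48 h. Tet2 had 75.8 and 74.3 TPM in 2i, 24.5 and 23.2 TPM at 24 h and 10.3 and 10.9 TPM at 48 h. Tet3 had 4.20 and 4.32 TPM in 2i, 5.28 and 5.46 TPM at 24 h and 12.5 and 11.6 TPM at 48 h. Tet1 thus peaked at 24 h, Tet2 fell at both steps and Tet3 was highest at 48 h, each with no overlap between times. Of all genes tested, 87.7% lacked overlap between 24 h and 2i, 86.9% between 48 and 24 h and 87.2% between 48 h and 2i. The 48 h change against 2i was -2.71 for Tet2 (-2.82 to -2.60, adjusted p = 3.3e-08), ranked 388 by size of 16559. It was 1.31 for Tet3 (1.16 to 1.46, adjusted p = 2.7e-06) and -0.18 for Tet1 (-0.25 to -0.10, adjusted p = 0.0018). Tdg had 61.1 and 56.8 TPM in 2i, 117 and 113 TPM at 24 h and 98.4 and 100.2 TPM at 48 h, so it rose at 24 h by 0.95 (adjusted p = 1.7e-06) and stayed 0.74 above 2i at 48 h (adjusted p = 5.2e-06).

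The make-up of each role changed with these levels. Dnmt3a, Dnmt3b and Dnmt3l together summed to 112 and 120 TPM in 2i, 1064 and 1050 TPM at 24 h and 328 and 324 TPM at 48 h. The 3 Tet genes summed to 143 and 139 TPM in 2i, 132 and 129 TPM at 24 h and 77.2 and 77.1 TPM at 48 h. Tet2 made up 53.1% and 53.3% of the Tet sum in 2i, 18.6% and 18.0% at 24 h and 13.4% and 14.2% at 48 h. Tet3 made up 2.94% and 3.10%, 4.00% and 4.25%, and 16.2% and 15.0% at the same times. In these libraries Tet1 had the largest share at both epiLC times and Tet2 in 2i. In the other tables of cells in 2i, Tet1 made up 59.6% to 70.7% of the Tet sum in the shGFP libraries of V6.5 cells, in FPKM. In the shGFP libraries of QKO cells, in TPM, Tet2 made up 48.8% to 51.2% and Tet1 46.6% to 49.4%. Tet1 was above Tet2 in shGFP replicate 1 and below it in replicates 2 and 3, so their order was not set. With shBcat in QKO cells Tet1 had the largest share, 50.1% to 54.0%.

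**Figure D2:**
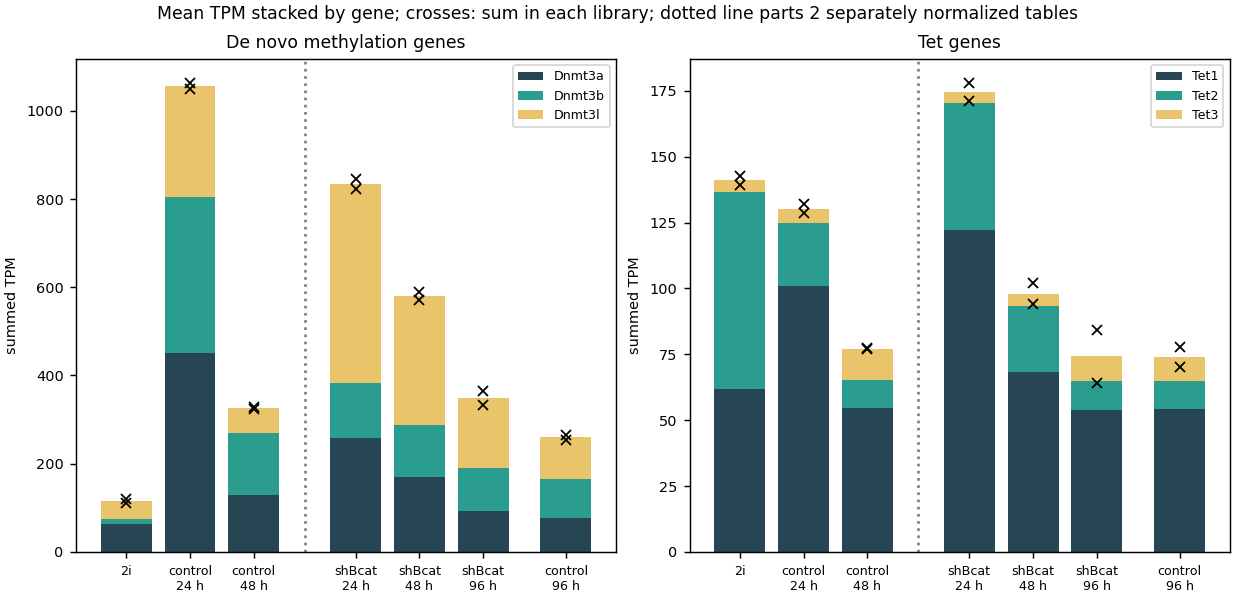
Summed TPM of the de novo genes (left) and of the Tet genes (right), with group means stacked by gene and a cross for the sum in each library (n = 2 per group). The dotted line separates tables that were normalized separately. The de novo sum is 1064 and 1050 TPM at 24 h in cells with no hairpin named. Dnmt3l is the widest layer in shBcat epiLC and also in the 96 h control of the same table.

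With the β-catenin hairpin, 2 of the de novo genes stepped down through 96 h of epiLC. In shBcat epiLC, Dnmt3l had 448 and 457 TPM at 24 h, 278 and 305 TPM at 48 h and 151 and 164 TPM at 96 h. Dnmt3a had 253 and 265 TPM at 24 h, 171 and 168 TPM at 48 h and 87.9 and 98.2 TPM at 96 h. Dnmt3b had 123 and 123 TPM at 24 h, 121 and 117 TPM at 48 h and 93.6 and 101 TPM at 96 h. Dnmt3l and Dnmt3a were lower at each later time, while Dnmt3b held nearly the same level at 24 and 48 h. Between 24 and 48 h, 6 of the 9 genes fell and none was called higher, where 33.4% of 15304 genes tested were called. The 48 h change was -0.64 for Dnmt3l (adjusted p = 0.00025), -0.61 for Dnmt3a (adjusted p = 0.00074), -0.92 for Tet2 (adjusted p = 0.0026), -0.83 for Tet1 (adjusted p = 0.0013), -0.32 for Uhrf1 (adjusted p = 0.0074) and -0.21 for Dnmt1 (adjusted p = 0.015). The Dnmt1 call was lost without any 1 of the 4 libraries (adjusted p 0.061 to 0.10), and the Uhrf1 call without 24 h replicate 2 or 48 h replicate 1 (adjusted p = 0.059 and 0.057). Dnmt3b did not pass the test in that step, with a change of -0.05 (-0.17 to 0.08, adjusted p = 0.55).

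Between 48 and 96 h of shBcat epiLC, 5 of the 9 genes fell and 1 rose, where 35.0% of all genes tested were called, 25.2% (3856) higher and 9.83% (1504) lower, or 2558 higher and 2368 lower with median-of-ratios scaling. Tet2 had 27.5 and 22.7 TPM at 48 h and 9.22 and 12.9 TPM at 96 h, a change of -1.12 (adjusted p = 0.0013). Tet3 had 4.03 and 4.45 TPM at 24 h, 4.82 and 4.72 TPM at 48 h and 8.09 and 10.7 TPM at 96 h, and its 96 h change was 0.84 (adjusted p = 0.0021). Dnmt3l changed by -0.88 (adjusted p = 9.9e-05), Dnmt3a by -0.86 (adjusted p = 0.00022) and Dnmt3b by -0.29 (adjusted p = 0.0051). Tet1 changed by -0.35 (adjusted p = 0.047), a call lost without either 48 h replicate (adjusted p = 0.18 and 0.13) or without 96 h replicate 1 (adjusted p = 0.16).

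At 96 h, the 1 time with both arms in a table, Dnmt3l was the 1 gene of the 9 that passed the test between β-catenin knockdown and control. It had 151 and 164 TPM in shBcat epiLC, against 93.9 and 95.1 TPM in control epiLC, with no overlap. The change was 0.73 (0.59 to 0.87, adjusted p = 0.00077), ranked 284 by size of 15304 genes, of which 4.82% were called, 2.29% higher and 2.54% lower. The call held under every alternative tried at this time, including each library left out in turn. The other 8 did not pass, and 5 of the 9 had an unadjusted p under 0.05, as did 3056 of the 15304 genes tested. Of the 9 genes, 5 did not overlap between the arms, as held for 45.0% of all genes tested. The nearest to a call were Dnmt3a, with 87.9 and 98.2 TPM in shBcat against 73.1 and 82.3 TPM in control (0.26, 0.09 to 0.43, adjusted p = 0.098), and Dnmt1, with 108 and 112 TPM in shBcat against 127 and 118 TPM in control (-0.16, -0.27 to -0.04, adjusted p = 0.14). Dnmt3b had 93.6 and 101 TPM in shBcat against 87.4 and 88.5 TPM in control (0.15, 0.03 to 0.27, adjusted p = 0.17). Tdg had 102 and 109 TPM in shBcat against 119 and 113 TPM in control (-0.14, -0.26 to -0.01, adjusted p = 0.20). Tet1, Tet2, Tet3 and Uhrf1 overlapped between the arms. The intervals of the Tet changes ran from -0.28 to 0.24 for Tet1, -0.29 to 0.38 for Tet2 and -0.29 to 0.28 for Tet3. Mitochondrial transcripts took 4.76% to 4.87% of the TPM in shBcat and 3.83% to 3.91% in control at 96 h, and the trophoblast marker sum was 95.6 to 100.4 TPM in shBcat and 124 to 127 TPM in control, with 2 of the 4 markers called lower. The formative marker sum was 66.9 to 77.9 TPM in shBcat and 82.0 to 89.5 TPM in control, with 1 of 4 called lower. Pou5f1 and Sox2 summed to 448 to 474 TPM in shBcat and 399 to 413 TPM in control, with 1 of 2 called higher. Their part in the result was not tested.

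At 24 and 48 h the arms lie in tables normalized separately, so the values are set side by side with no test. Dnmt3b had 123 and 123 TPM in shBcat epiLC at 24 h, and 356 and 354 TPM in epiLC with no hairpin named. Dnmt3a had 253 and 265 TPM in shBcat at 24 h, and 454 and 446 TPM with no hairpin named. Dnmt3l had 448 and 457 TPM in shBcat at 24 h, and 254 and 250 TPM with no hairpin named. The de novo genes therefore stood in a different order at 24 h. It was Dnmt3l above Dnmt3a above Dnmt3b in both shBcat libraries, and Dnmt3a above Dnmt3b above Dnmt3l in both with no hairpin named. Hairpin and table differ together here, so their parts in this order cannot be told apart. The 96 h control, with no hairpin named but in the table of shBcat, also had Dnmt3l highest, with 93.9 and 95.1 TPM. Dnmt3b had 87.4 and 88.5 TPM in that control, and Dnmt3a 73.1 and 82.3 TPM. Tet2 had 47.7 and 48.3 TPM in shBcat at 24 h, and 24.5 and 23.2 TPM with no hairpin named. At 48 h Dnmt3l had 278 and 305 TPM in shBcat and 57.6 and 52.6 TPM with no hairpin named, and Tet3 had 4.82 and 4.72 TPM in shBcat and 12.5 and 11.6 TPM with no hairpin named. Tet3 made up 4.73% and 5.01% of the Tet sum in shBcat at 48 h, and 16.2% and 15.0% with no hairpin named. Formative marker sums were 76.6 to 77.6 TPM in shBcat and 137 to 139 TPM with no hairpin named at 24 h. The Pou5f1 and Sox2 sum was 671 to 673 TPM in shBcat and 384 to 398 TPM with no hairpin named at 48 h. At that time the trophoblast sum was 44.6 to 46.4 TPM in shBcat and 178 to 187 TPM with no hairpin named, the primitive endoderm sum 8.69 to 8.79 and 20.1 to 23.8 TPM, and the fibroblast or feeder sum 6.10 to 6.64 and 14.1 to 15.1 TPM. The part of these markers in the values was not tested.

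In V6.5 cells held in 2i, Dnmt3l was higher and Tet2 lower with β-catenin knockdown. Dnmt3l had 31.5 and 31.5 FPKM in shBcat, against a lowest of 9.72, a median of 10.35 and a highest of 14.0 FPKM in shGFP. Tet2 had 7.68 and 8.14 FPKM in shBcat, against 12.5, 19.3 and 19.9 FPKM in shGFP, in the same order of lowest, median and highest. Neither gene overlapped between the groups, as held for 6 of the 9 genes and for 34.2% of all genes tested. The Dnmt3l change was 1.43 (0.62 to 2.23, adjusted p = 0.037) and the Tet2 change -1.01 (-1.44 to -0.57, adjusted p = 0.011), ranked 158 and 418 by size of 14407 genes, of which 8.71% were called, 3.51% higher and 5.21% lower. The other 7 did not pass, and 4 of the 9 had an unadjusted p under 0.05, as did 3277 of the 14407 genes tested. The Dnmt3l call was lost without shGFP replicate 1, 2, 3, 4 or 6 (adjusted p 0.051 to 0.063) and without either shBcat replicate (0.28 for each). The Tet2 call was lost without shBcat replicate 1 or 2 (adjusted p = 0.16 and 0.13). The libraries lay in close pairs, with Tet2 at 19.5 and 19.7, 19.1 and 19.9, and 12.6 and 12.5 FPKM in shGFP 1 to 6. If each pair is 1 culture, the independent samples are fewer than the 2 and 6 libraries, and the labels do not say. With pairs averaged, 1 shBcat value remained, the changes were 1.43 for Dnmt3l and -1.005 for Tet2, and neither stayed called.

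Dnmt3b had 15.8 and 17.2 FPKM in shBcat, against 6.17, 7.015 and 12.6 FPKM in shGFP as lowest, median and highest. Every shBcat library was above every shGFP library, yet the change of 0.92 (0.32 to 1.52) missed the threshold (adjusted p = 0.064). Of the shGFP libraries, replicates 3 and 4 had 12.2 and 12.6 FPKM of Dnmt3b and the other 4 had 6.17 to 7.24 FPKM. Mitochondrial transcripts took 19.3% to 22.9% of the FPKM in shGFP 3 and 4 and both shE2F6 libraries, and 6.23% to 10.3% in the other 8 libraries. With shGFP 1, 2, 5 and 6 as controls the Dnmt3b change was 1.19 (adjusted p = 0.000858). Dnmt3a, with 4.24 and 4.16 FPKM in shBcat and 5.5 to 7.62 FPKM in those 4 libraries, changed by -0.52 (adjusted p = 0.025). With these controls 19.9% of all genes tested were called. Over all 6 controls the Dnmt3a change was -0.36 (-0.78 to 0.05, adjusted p = 0.28). Dnmt3b was also called without shGFP 3 (adjusted p = 0.031) or 4 (0.028). The de novo sum was 51.5 and 52.9 FPKM in shBcat and 23.7 to 27.3 FPKM in shGFP. Tet2 made up 15.2% and 16.1% of the Tet sum in shBcat, and 27.5% to 36.5% in shGFP. The formative marker sum was 9.06 to 9.21 FPKM in shBcat and 2.81 to 3.94 FPKM in shGFP, with 1 of the 2 markers tested called higher. The median formative marker had 0.932 to 0.9975 FPKM in shBcat and 0.541 to 0.940 FPKM in shGFP, so the sum does not describe the list. The trophoblast sum was 20.4 to 22.0 FPKM in shBcat and 6.503 to 11.5 FPKM in shGFP, with all 3 markers tested called higher. Of the 7 naive markers, 2 were called lower and none higher. Whether these bear on the result was not tested.

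Of the other genes with shBcat in 2i, Uhrf1 had 64.1 and 63.8 FPKM, against 68.2, 77.3 and 83.7 FPKM in shGFP, with a change of -0.25 (-0.47 to -0.03, adjusted p = 0.17). Tet1 had 40.7 and 40.6 FPKM in shBcat, against 31.8, 32.5 and 39.5 FPKM in shGFP, with a change of 0.25 (-0.06 to 0.55, adjusted p = 0.33). Dnmt1, Tdg and Tet3 overlapped between the groups. Tet3, at 2.12 and 1.99 FPKM in shBcat, was close to shGFP 1 and 2 with 2.10 and 2.09 FPKM and above the other 4 controls, which had 0.734 to 0.930 FPKM.

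**Figure D3:**
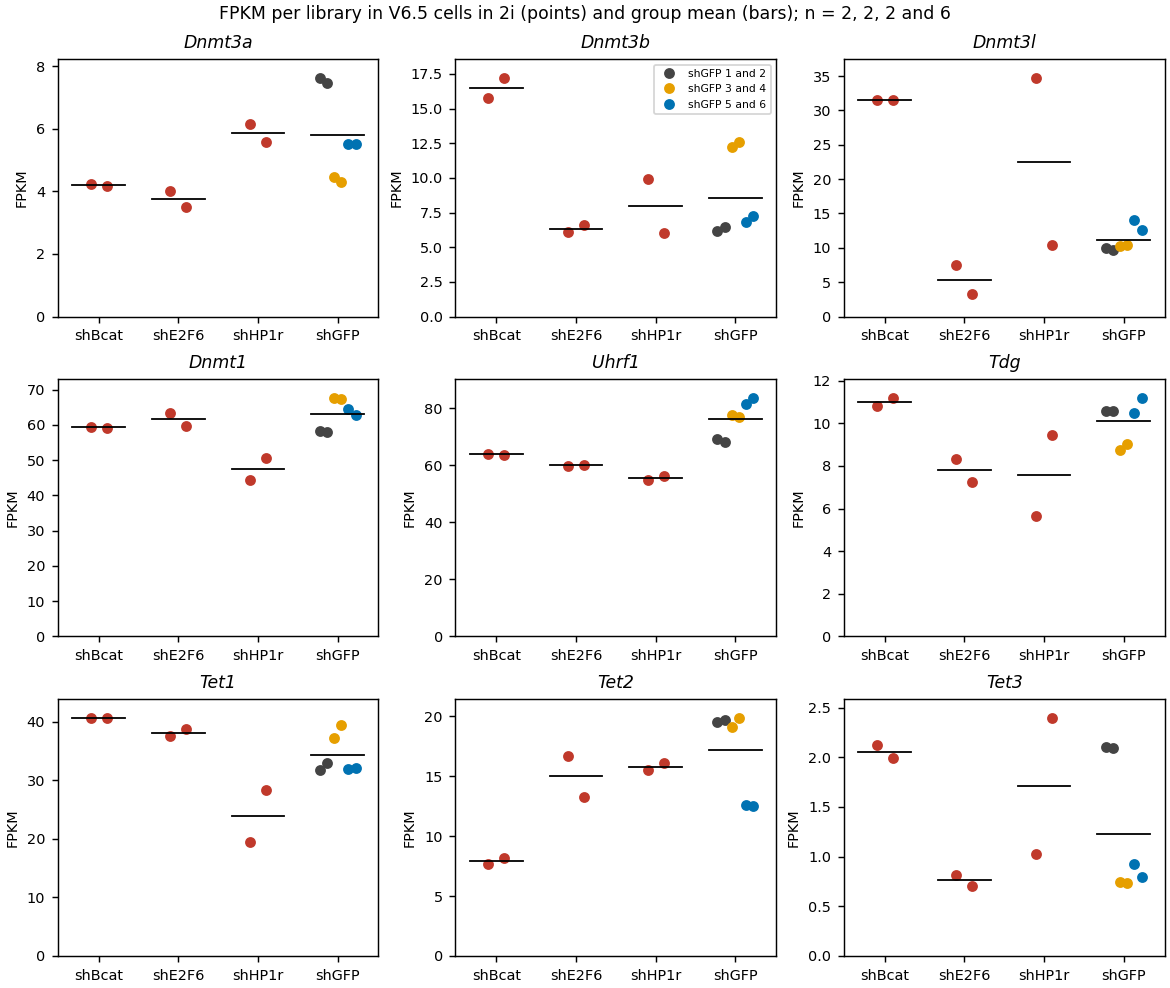
FPKM of each gene in every library of V6.5 cells in 2i, by hairpin, with a bar at the group mean (n = 2 for shBcat, shE2F6 and shHP1r, n = 6 for shGFP). The shGFP points are coloured by the pair they fall in. Both shBcat libraries have more Dnmt3l and less Tet2 than any shGFP library, and the shHP1r replicates stand apart from each other for Dnmt3l.

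With HP1γ knockdown, Uhrf1, Dnmt1 and Tet1 were lower than in the 6 controls. Uhrf1 had 54.8 and 56.3 FPKM in shHP1r, against 68.2, 77.3 and 83.7 FPKM in shGFP as lowest, median and highest. Dnmt1 had 44.3 and 50.6 FPKM in shHP1r, against 58.0, 63.6 and 67.7 FPKM in shGFP. Tet1 had 19.5 and 28.4 FPKM in shHP1r, against 31.8, 32.5 and 39.5 FPKM in shGFP. None of the 3 overlapped between the groups, and the other 6 did, where 24.0% of all genes tested did not overlap. The changes were -0.45 for Uhrf1 (-0.67 to -0.22, adjusted p = 0.022), -0.40 for Dnmt1 (-0.62 to -0.19, adjusted p = 0.032) and -0.52 for Tet1 (-0.82 to -0.21, adjusted p = 0.046), where 7.59% of all genes were called, 5.89% higher and 1.70% lower. These calls did not hold under every alternative. Leaving out 1 shHP1r library leaves 1 in that group, so a call lost there can come from fewer samples alone. Uhrf1 was not called without shHP1r replicate 1 or 2 (adjusted p = 0.22 and 0.061), and none of the 3 was called when the groups were fitted alone (adjusted p 0.090 to 0.13). Dnmt1 was not called without shGFP 3, 4, 5 or 6 (adjusted p 0.050 to 0.062) or without shHP1r replicate 1 (0.37), and Tet1 without any 1 shGFP library (0.056 to 0.071) or shHP1r replicate 1 (0.55). With median-of-ratios scaling, the change was -0.52 for Dnmt1 (adjusted p = 0.085) and -0.63 for Tet1 (adjusted p = 0.087), neither called. The trophoblast marker sum was 15.2 to 22.2 FPKM in shHP1r and 6.503 to 11.5 FPKM in shGFP, with 2 of the 3 markers tested called higher. The primitive endoderm sum was 3.56 to 4.59 FPKM in shHP1r and 0.910 to 3.17 FPKM in shGFP, with 1 of the 2 tested called higher. Their part in these values was not tested.

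The shHP1r replicates differed most in Dnmt3l, with 34.7 FPKM in replicate 1 and 10.4 FPKM in replicate 2, against 9.72, 10.35 and 14.0 FPKM in shGFP. Its change of 0.74 (-0.06 to 1.55) did not pass (adjusted p = 0.27). Without replicate 2 it was 1.56 (adjusted p = 0.012), and without replicate 1 it was -0.08. Tdg had 5.67 and 9.45 FPKM in shHP1r, against 8.75, 10.55 and 11.2 FPKM in shGFP (-0.41, adjusted p = 0.15), and was called without replicate 2 (-0.73, adjusted p = 0.012). Of the 6 fibroblast or feeder markers 3 are in the FPKM table, and these summed to 3.32 to 5.20 FPKM in shHP1r and 0.677 to 1.63 FPKM in shGFP, and their part was not tested. Set against shBcat directly, shHP1r libraries had more Tet2 (15.5 and 16.1 against 7.68 and 8.14 FPKM, 0.92, adjusted p = 0.037) and less Tet1 (19.5 and 28.4 against 40.7 and 40.6 FPKM, -0.76, adjusted p = 0.016), where 9.31% of all genes were called, 6.97% higher and 2.34% lower. The 2 knockdowns share their controls in the comparisons with shGFP. The size of the direct change does not use those controls, but its p-values do, because spread was estimated over all libraries of the table. Tet2 was not called without any 1 of the 4 libraries (adjusted p 0.12 to 0.21), nor Tet1 without either shBcat replicate or shHP1r replicate 1 (0.11 to 0.12), and neither was called with median-of-ratios scaling (0.11 and 0.062).

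E2F6 knockdown gave no call among the 9 genes with limma, where 1.06% of all genes were called, 0.410% higher and 0.652% lower. An unadjusted p under 0.05 was found for 3 of the 9, and for 4857 of the 14407 genes tested. Uhrf1 came nearest, with 59.8 and 60.3 FPKM in shE2F6, against 68.2, 77.3 and 83.7 FPKM in shGFP (-0.34, -0.56 to -0.11, adjusted p = 0.082). Dnmt3l had 7.47 and 3.30 FPKM in shE2F6, against 9.72, 10.35 and 14.0 FPKM in shGFP (-1.0005, -1.81 to -0.20, adjusted p = 0.11). Dnmt3a had 4.00 and 3.49 FPKM in shE2F6, against 4.31, 5.51 and 7.62 FPKM in shGFP (-0.50, -0.91 to -0.09, adjusted p = 0.11). Of all genes tested, 33.8% did not overlap between these groups. The ratio of Uhrf1 to Dnmt1 FPKM was 0.942 and 1.01 in shE2F6 and 1.14 to 1.33 in shGFP. The median of all genes in this comparison was -0.20, so part of each of these values is shared with the whole table, and median-of-ratios scaling brought that median to -0.001. Of the genes called, 59 were higher and 94 lower, and with that scaling 153 were higher and 86 lower. Against shGFP 3 and 4 alone, the controls with a like mitochondrial share, Uhrf1 changed by -0.36 and was called (adjusted p = 0.040). With a term added for the high mitochondrial share, Dnmt3b, with 6.07 and 6.59 FPKM in shE2F6 and 12.2 and 12.6 FPKM in shGFP 3 and 4, changed by -0.87 (adjusted p = 0.029). Without shGFP 3 or 4, Dnmt3a and Uhrf1 were called (adjusted p 0.043 to 0.049). Of all genes tested, 28.9% were called without shGFP 3 and 23.9% without shGFP 4, so a call there says little. Pou5f1 and Sox2 summed to 159 to 161 FPKM in shE2F6 and 197 to 443 FPKM in shGFP, and the trophoblast markers to 3.55 to 3.97 and 6.503 to 11.5 FPKM, whose part was not tested.

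In QKO cells in 2i, the β-catenin hairpin changed none of the 9 genes past the threshold with limma, where 2.15% of 15562 genes tested were called, 91 higher and 243 lower, or 173 higher and 176 lower with median-of-ratios scaling. Of the 9, 5 had an unadjusted p under 0.05, as did 4464 of the 15562 genes tested. Tet1 came nearest, with 111, 115 and 113 TPM in shBcat, against 97.9, 82.6 and 97.3 TPM in shGFP (0.29, 0.13 to 0.45, adjusted p = 0.059). Dnmt3b had 10.9, 10.0 and 10.1 TPM in shBcat, against 11.3, 13.2 and 12.2 TPM in shGFP (-0.22, -0.40 to -0.05, adjusted p = 0.11). Neither overlapped between the groups, as held for 5 of the 9 genes and for 35.6% of all genes tested. Dnmt3l had 15.4, 17.3 and 18.3 TPM in shBcat, against 17.3, 19.9 and 17.8 TPM in shGFP, and Tet2 had 107, 103 and 93.6 TPM in shBcat, against 96.7, 90.7 and 98.5 TPM in shGFP. Both overlapped. The interval of the change was -0.30 to 0.09 for Dnmt3l and -0.05 to 0.22 for Tet2. The 6 fibroblast or feeder markers summed to 55.2 to 82.3 TPM in shBcat and 232 to 548 TPM in shGFP, all 6 at 1 TPM or more in every library. The primitive endoderm markers summed to 9.22 to 15.3 TPM in shBcat and 21.2 to 37.05 TPM in shGFP, and their part in these values was not tested.

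Set side by side, the 3 comparisons of shBcat with its own control gave 1.43 for Dnmt3l in V6.5 cells in 2i, -0.10 in QKO cells in 2i and 0.73 at 96 h of epiLC. For Tet2 they gave -1.01, 0.09 and 0.04 in the same order. The V6.5 cells in 2i were measured in FPKM and the others in TPM, in separate tables, so the differences between these values were not tested.

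**Figure D4:**
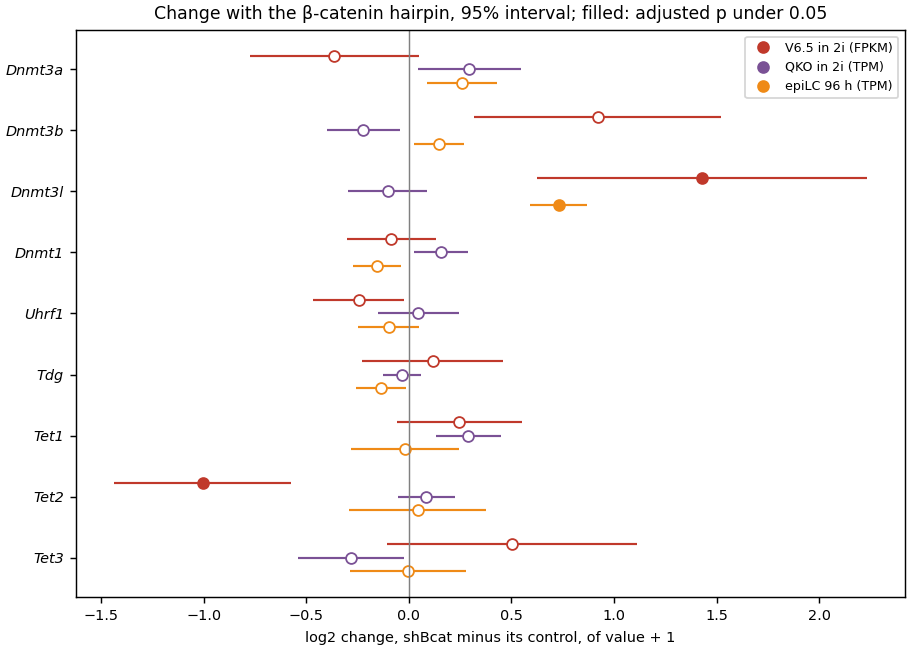
Log2 change of each gene with the β-catenin hairpin against its own control, in V6.5 cells in 2i (red), QKO cells in 2i (purple) and epiLC at 96 h (orange), with 95% intervals from limma. Filled points passed an adjusted p of 0.05. Dnmt3l is filled at 1.43 and 0.73 and Tet2 at -1.01.

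The genes around the pathway were read from 4 lists. Of 10 genes of methyl donor supply, 9 rose and 1 fell at 24 h against 2i, where 36.2% of all genes rose and 39.8% fell. The median change of the 10 was 0.47, beside -0.04 for all genes. Mat2a, which makes S-adenosylmethionine, averaged 614 ± 5.88 TPM at 24 h and 259 ± 0.0495 TPM in 2i (SD, n = 2 each), a change of 1.24, and Shmt2, a mitochondrial serine hydroxymethyltransferase, changed by 0.56. Mtr, methionine synthase, was the 1 that fell, by 0.69 on the log2 scale. At 48 h against 24 h, 7 fell, 2 rose and 1 did not pass, where 45.2% of all genes rose and 28.9% fell. Shmt2 changed by -1.13 and Mat2a by -1.08 in that step. None of the 10 passed by limma in V6.5 hairpin cells, in QKO cells or at 96 h, where 1 to 3 had an unadjusted p under 0.05, or 6 with shE2F6. Over all 14407 genes tested in V6.5 hairpin cells, such a p was found for 3277 (shBcat), 4857 (shE2F6) and 3226 (shHP1r). It was found for 3129 between shHP1r and shBcat, for 4464 of 15562 in QKO cells and for 3056 of 15304 at 96 h.

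Of 13 base excision repair and Gadd45 genes, 6 rose and 6 fell at 24 h and 1 did not pass, where 36.2% of all genes rose and 39.8% fell, so the counts are near the background. The largest changes were in the Gadd45 stress-response genes, whose part in active demethylation has been proposed. Gadd45b averaged 54.8 TPM in 2i, 3.12 TPM at 24 h and 32.8 TPM at 48 h. Gadd45g averaged 4.18 TPM in 2i, 63.0 TPM at 24 h and 3.07 TPM at 48 h. Gadd45a averaged 10.1 TPM in 2i, 86.8 TPM at 24 h and 52.4 TPM at 48 h. Gadd45b thus ran opposite to Gadd45g at each step. At 48 h against 24 h, 6 of the 13 rose and 7 fell, where 45.2% of all genes rose and 28.9% fell, and Apex1 changed by -1.04. With shBcat in V6.5 cells in 2i, Gadd45a was the 1 called of 13, with 23.9 FPKM in shBcat and 11.1 FPKM in shGFP on average (1.05, adjusted p = 0.013), and it was not called without either shBcat replicate (adjusted p = 0.14 and 0.17). With shE2F6 none was called by limma and 6 had an unadjusted p under 0.05, beside 4857 of the 14407 genes tested. With shHP1r, Gadd45g was the 1 called, at 1.55 (adjusted p = 0.048), and it was not called without any 1 shGFP library or without shHP1r replicate 1 (adjusted p 0.062 to 0.29, and a change of 0.42 without that replicate). In QKO cells Gadd45b was the 1 called, at -0.36 (adjusted p = 0.041), not so without shBcat replicate 2 or 3 or shGFP replicate 1 or 2 (0.058 to 0.15). At 96 h, Gadd45g with 12.7 TPM in shBcat and 6.80 TPM in control was higher (0.81, adjusted p = 0.0052), and Gadd45b lower (-0.45, adjusted p = 0.025), the Gadd45b call lost without either control replicate or shBcat replicate 2 (0.073 to 0.13).

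Of 13 regulators and partners, 6 rose, 5 fell and 2 did not pass at 24 h, also near the 36.2% and 39.8% of all genes. Prdm14, a repressor of de novo methylation genes in naive cells, averaged 20.35 TPM in 2i, 0.490 TPM at 24 h and 0.290 TPM at 48 h. Dppa3, which protects 5-methylcytosine from oxidation in the zygote, averaged 88.0 TPM in 2i, 10.9 TPM at 24 h and 9.76 TPM at 48 h. Ogt, the glycosyltransferase that binds Tet proteins, averaged 224 TPM in 2i, 57.9 TPM at 24 h and 151 TPM at 48 h. At 48 h against 24 h, 5 rose and 7 fell, beside 45.2% and 28.9% of all genes, and Hells, a chromatin remodeller needed for methylation, changed by -1.10. Usp7, a deubiquitinase that stabilizes Dnmt1 and Uhrf1, was the 1 called with shHP1r (-0.49, adjusted p = 0.027), and it was not called without either shHP1r replicate (0.18 and 0.11). Zfp57 was the 1 called at 96 h (0.27, adjusted p = 0.047), lost without control replicate 1 or either shBcat replicate (0.063 to 0.16). None was called by limma with shBcat in V6.5 cells, with shE2F6 or in QKO cells, where 1, 6 and 5 had an unadjusted p under 0.05. Over all genes tested these counts were 3277 of 14407, 4857 of 14407 and 4464 of 15562.

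Of 9 genes of the methyl-CpG-binding families, 2 rose and 7 fell at 24 h, where 36.2% of all genes rose and 39.8% fell, and 5 rose and 2 fell at 48 h against 24 h, where 45.2% rose and 28.9% fell. Mbd3, a subunit of the NuRD complex that in mammals does not bind methylated CpG selectively, averaged 110.2 TPM in 2i, 271 TPM at 24 h and 156 TPM at 48 h. Zbtb38 averaged 18.8 TPM in 2i, 8.28 TPM at 24 h and 4.64 TPM at 48 h. Of the 8 tested in the FPKM table, shBcat lowered Uhrf2 (-0.39, adjusted p = 0.043) and Zbtb33 (-0.38, adjusted p = 0.036). Neither was called without either shBcat replicate (adjusted p 0.27 to 0.36) or without most single shGFP libraries (0.055 to 0.075). shHP1r lowered Zbtb38 (-0.57, adjusted p = 0.012), not so without shHP1r replicate 1 (0.20). None was called by limma with shE2F6, in QKO cells or at 96 h, where 2, 2 and 1 had an unadjusted p under 0.05. Over all genes tested these counts were 4857 of 14407, 4464 of 15562 and 3056 of 15304. For shHP1r against shBcat, Mbd1 was the 1 gene of this list called (0.52, adjusted p = 0.022), not so without either shBcat replicate or shHP1r replicate 1 (0.099 to 0.18). In shBcat epiLC, 1 gene of this list rose and 2 fell at 48 h against 24 h, and 4 rose and none fell at 96 h against 48 h. For repair and Gadd45 genes these counts were 1 and 4, then 5 and 3, for regulators 1 and 6, then 6 and 4, and for donor supply 1 and 4, then 0 and 3. Of all genes tested, 15.7% rose and 17.8% fell in the first of these steps, and 25.2% rose and 9.83% fell in the second.

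Across the 20 TPM libraries, with each gene's log2 values centred within its table, the genes whose pattern was most like each member were ranked among 13676 genes. The points share tables and time courses, so these are descriptions. Bend3 followed Dnmt3b most closely (r = 0.99), Foxd3 followed Dnmt3l (r = 0.99), Gemin4 followed Dnmt3a (r = 0.98) and Slc35f2 followed Tet2 (r = 0.98). Among the members, Dnmt3a and Dnmt3l were the pair most alike (r = 0.96), Tdg ran with Dnmt3b (r = 0.90), and Tet2 and Tet3 ran opposite to each other (r = -0.89). For Dnmt1 the closest gene had r = 0.88.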

How the data were processed

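The authors deposited FPKM values for the V6.5 hairpin libraries, and, per the submitters' processing notes, these came from TopHat2 2.0.13 and Cufflinks 2.2.1. The authors deposited TPM values in the other 3 tables, from STAR and RSEM per the same notes, which name mm10. Per the file headers, 1 further column named for shHP1r replicate 2, with values below 0, was not used. The replicate 2 values used came from a column with a header styled unlike those of the other V6.5 hairpin libraries. Whether this bears on the differences between the shHP1r replicates was not tested. Depth is unknown, and scaling by total lets abundant transcripts lower all others.

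From these values, log2(value + 1) was computed, which understates the change of low genes. A gene was tested if 2 or more libraries reached a value of 1. Each table had its own limma 3.58.1 fit (statmod 1.5.0, R 4.3.3) with group means, intensity-trended variances and robust shrinkage. Tests were two-sided with Benjamini-Hochberg adjustment over all genes tested and a threshold of 0.05. "Called" means past that threshold. Changes are the group named first minus the other, and ranks are by absolute size. The fit was tested on simulated data with independent noise in each library. That noise holds neither the close pairs nor the mitochondrial split of the V6.5 hairpin libraries, so the test says nothing about them.

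The 9 genes, the pathway and marker lists and the tests were chosen with earlier results of these data known. Besides the 9 genes, the rule named up to 3 called genes of largest change per list and comparison, of which the text gives a part. Alternatives were a pseudocount of 0.1, no filter, median-of-ratios scaling, the compared groups alone, replicate number as a block, each library left out, a term for libraries over a 15% mitochondrial share, controls of 1 side of that split, and libraries averaged in pairs.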

Additional observations from a re-analysis of the deposited data

Results flagged for a closer look

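For 3 genes, every library with the β-catenin hairpin lay on 1 side of its controls in one setting and on the other side in another. With 2 or 3 libraries in the smaller group this is common: of 11996 genes tested in all 3 settings, 17.7% did the same, and 34.2% (V6.5 in 2i), 35.6% (QKO in 2i) and 45.0% (96 h) did not overlap in a single setting. The shares of genes called were 8.71%, 2.15% and 4.82% in the same order. The settings lie in separate tables and units, so these differences were not tested, and none of the values below passed the adjusted threshold in its own comparison. Dnmt3b changed by 0.92 in V6.5 cells in 2i and 0.15 in epiLC at 96 h, and by -0.22 in QKO cells in 2i. Dnmt3a changed by -0.36 in V6.5 cells in 2i and by 0.26 in epiLC at 96 h. Dnmt1 changed by 0.16 in QKO cells in 2i and by -0.16 in epiLC at 96 h. All are log2 changes of shBcat minus its own control. The shGFP libraries of V6.5 cells lie in close pairs, so a test for a single library apart from the others says little about them and is not read here.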

How the results depend on the processing

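Of 46 member changes called, 36 stayed called under every alternative run, 10 lost the call under at least 1, and 0 changed sign. None of the calls between 2i, 24 h and 48 h in cells with no hairpin named lost its call, nor did Dnmt3l at 96 h. The causes of the moves below were not tested. Where leaving out a library left 1 in a group, that library was assumed to vary like the other groups. Depth is not given by FPKM or TPM, so its limit on low genes such as Tet3 could not be set.

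Shares of all genes called moved between settings in the V6.5 hairpin comparisons. With shBcat against shGFP the share was 8.71%, then 24.1% with the library set term and 19.9% with shGFP 1, 2, 5 and 6. With shE2F6 it was 1.06%, then 1.78% with the set term and 28.9% or 23.9% without shGFP 3 or 4. With shHP1r against shGFP it was 7.59%, then 3.92% with the groups alone and 22.9% with the set term. For shHP1r against shBcat it was 9.31%, then 26.5% with the set term. The number of members called changed in these comparisons too. With shBcat against shGFP it was 2, and became 4 with the library set term or shGFP 1, 2, 5 and 6, 0 with pairs averaged (2 at an unadjusted p under 0.05) and 0 to 2 with a library left out. With shE2F6 it was 0, and became 1 with the set term or shGFP 3 and 4 alone and 0 to 2 with a library left out. With shHP1r against shGFP it was 3, and became 0 with the groups alone (4 unadjusted) or pairs averaged (1 unadjusted) and 0 to 4 with a library left out. With shHP1r against shBcat it was 2, and became 0 with median-of-ratios scaling (4 unadjusted), 1 with the groups alone, 5 with the set term and 0 to 2 with a library left out.

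Whether replicate numbers pair the samples could not be settled. Correlations of same-numbered deviations were -0.01, -0.04 and 0.13 in QKO cells, where only number 3 correlated best with itself, and 0.28 at 96 h. With no hairpin named they were -0.02 at 24 h against 2i, 0.04 at 48 against 24 h and 0.09 at 48 h against 2i. Between groups of 2 libraries the deviations mirror each other, so such a comparison gives 1 value and cannot exclude pairing. The replicate block changed the members called to 4 with shE2F6, 1 with shHP1r and 5 for shHP1r against shBcat, and the all-gene calls to 7685, 609 and 3319, and to 138 in QKO cells. Under the block with shBcat in V6.5 cells, Dnmt3l lost its call (1.58, adjusted p = 0.063), Dnmt3b (1.25, adjusted p = 0.018) and Dnmt3a (-0.72, adjusted p = 0.00786) were called by limma, and Dnmt1 changed sign to 0.0278 and Tet3 to -0.0191. Under the block Dnmt1 changed sign with shE2F6 to 0.0811, and with shHP1r Dnmt3a to -0.32, Dnmt3b to 0.26 and Tet3 to -0.24.

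The remaining sign changes were of values not called. With median-of-ratios scaling they were Dnmt1 (0.22) and Tet2 (0.0668) with shE2F6, Dnmt3a with shHP1r (-0.0615), Tdg in QKO cells (0.0221), Tet3 at 96 h (0.00356), and Dnmt1 (-0.0697) and Tdg (-0.0404) in shBcat epiLC at 96 against 48 h. With the set term or the controls on 1 side of the mitochondrial split they were Tet1 (-0.00875) and Tet3 (0.0166) with shE2F6, and Dnmt3a (-0.12), Dnmt3b (0.19) and Tet2 (0.00778) with shHP1r. With a library left out, the ranges that crossed 0 were -0.0756 to 0.012 for Dnmt1 with shE2F6, and with shHP1r -0.0297 to 0.110 for Dnmt3a, -0.39 to 0.24 for Dnmt3b, -0.0829 to 1.56 for Dnmt3l and -0.0866 to 0.66 for Tet3. For shHP1r against shBcat they were -1.51 to 0.14 for Dnmt3l and -0.59 to 0.15 for Tet3. They were -0.0429 to 0.14 for Uhrf1 in QKO cells, -0.0688 to 0.0404 for Dnmt1 at 48 h against 2i, -0.20 to 0.16 for Tet1, -0.18 to 0.26 for Tet2 and -0.19 to 0.18 for Tet3 at 96 h, and -0.0883 to 0.0434 for Uhrf1 in shBcat epiLC at 96 against 48 h.

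Counts over all genes that moved by more than 1.5 times were these. With shBcat in V6.5 cells 1255 became 3473 (set term), 2854 (shGFP 1, 2, 5 and 6), 0 (pairs, 631 unadjusted) and 190 or 196 without an shBcat replicate. With shE2F6 153 became 278 (pseudocount 0.1), 239 (scaling), 36 (groups alone), 257 (set term), 0 (pairs, 190 unadjusted) and 14 to 4166 with a library left out. With shHP1r 1093 became 1847 (no filter), 557 (groups alone), 3296 (set term), 2330 (shGFP 1, 2, 5 and 6), 0 (pairs, 607 unadjusted) and 290 without shHP1r replicate 1. For shHP1r against shBcat 1341 became 3817 (set term) and at least 568 with a library left out. In QKO cells 334 became 570 (pseudocount 0.1), 14 (no filter) and 8 to 964, at 96 h 738 became 341 (no filter), 268 (groups alone) and 279 to 453, and in shBcat epiLC 5115 became 2870 to 3038 at 48 against 24 h and 5360 became 2611 to 4664 at 96 against 48 h, each range with a library left out.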
